A study of Mus musculus with 2 samples.

Results

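In 4T1 cells treated with astragalin (AS), 8 of 9 non-coding host transcripts of small nucleolar RNAs were higher than with the vehicle and 1 was lower. The share of all genes that were higher was 60.9%. The AS level of Snhg12 was 1.82 times the vehicle level, that of Snhg5 1.75 times and that of Snhg1 1.55 times. Gas5 and Snhg8, with the highest levels per length, were at 1.08 and 1.06 times, and Snhg3 was at 0.708 times. The 9 transcripts are Gas5, Snhg1, Snhg3, Snhg5, Snhg6, Snhg8, Snhg12, Snhg15 and Epb41l4aos. They were chosen by symbol, with earlier results of these data known, and 9 of 9 had a row in the deposited table of 14197 genes. 4T1 is a murine mammary carcinoma line, labelled wild type here, and AS is a plant flavonoid. Treatment lasted 24 h in both groups, and the dose of AS given to these cultures is not given in the sources used here. Each group is a single library made with a stranded mRNA kit. No difference therefore has a replicate check, no p-value is given, and any other difference between the 2 cultures cannot be told apart from the treatment.

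Small nucleolar RNAs (snoRNAs) sit in introns and are cut out after splicing. Those of the box C/D class guide ribose methylation of ribosomal RNA and those of the box H/ACA class guide pseudouridylation. The spliced exons of a non-coding host reach the cytoplasm, where ribosomes can read short frames in them. A stop codon that lies upstream of an exon junction then marks the RNA for nonsense-mediated decay, a pathway that depends on translation, and for this reason several of these hosts are known to build up when translation is blocked. Many hosts also begin with a terminal oligopyrimidine (TOP) tract, as the messages of ribosomal proteins do.

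The 9 genes hold snoRNAs of both classes. In the GENCODE M21 annotation (GRCm38), 31 snoRNA entries lay inside the 9 genes on the same strand, with 10 in Gas5, 8 in Snhg1, 5 in Snhg12, 2 each in Snhg3 and Snhg5, and 1 each in Snhg6, Snhg8, Snhg15 and Epb41l4aos. Of these entries, 21 ended with the letters of a box D, 9 with those of an ACA box and 1 with neither. Gas5, Snhg1, Snhg5 and Snhg6 therefore held mainly box C/D entries. Snhg3, Snhg8, Snhg15 and Epb41l4aos held only H/ACA entries, which goes against calling these 4 genes Snord hosts, and Snhg12 held both classes.

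The libraries were deep. Library sizes of 44909683 reads for AS and 50820728 reads for the vehicle stood behind the deposited RPKM, that is, reads scaled to exon length and library size. Fold changes are log2 values of AS over vehicle, after 0.1 RPKM was added to each level. Whole reads were recovered for 14197 of the 14197 genes, and the intervals are 95% Clopper-Pearson intervals of the log2 ratio of these reads, which cover counting error only. The median gene of the table had a log2 fold change of 0.07, and 60.9% of genes had the higher value with AS. The epithelial markers Epcam, Krt8, Krt18, Krt7 and Cdh1 were all expressed, between 84.6 and 902 RPKM, but were not level between the libraries. Their median log2 fold change was -0.35, with Krt8 at -0.54, Krt7 at -0.52, Krt18 at -0.35, Epcam at -0.09 and Cdh1 at 0.17, and the part of this in the values of the hosts was not tested. Ptprc, the pan-leukocyte marker, was at 0.116 and 0.114 RPKM, and the T cell marker Cd3e, the macrophage marker Adgre1 and the endothelial markers Pecam1 and Cdh5 had no row. Cd68, a lysosomal gene that is high in macrophages, was at 24.0 and 28.1 RPKM. Col1a1, Col1a2 and Pdgfra, which mark fibroblasts, lay between 0.342 and 4.24 RPKM. In such bulk RNA a change in the RNA per cell and a change in the share of cells that carry it cannot be told apart.

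Levels differed widely between the hosts. Per length, the RPKM of the highest host was 34.8 times that of the lowest with the vehicle and 51.9 times with AS. In the vehicle library the order of RPKM was Snhg8, Gas5, Snhg1, Snhg5, Epb41l4aos, Snhg12, Snhg6, Snhg3 and Snhg15, and in the AS library it was the same but for Snhg3, which came last. No spread between cultures was measured, so neighbours in this order, such as Snhg3 at 1.80 and Snhg15 at 1.75 RPKM with the vehicle, were not shown to differ. The gene lengths behind these values were whole numbers, and they were equal to the summed exon length in GENCODE M21 for 1 member, Snhg3, with 986 bases. The lengths of the other 8 were longer than in that release. Snhg5 had 3634 bases against 1730 and Snhg6 had 4219 against 1146. Both exceeded the whole span of the gene in that release, 1880 and 2160 bases. So did Snhg12 (2831 against a span of 2402), Snhg1 (3011 against 2969), Snhg8 (860 against 853) and Epb41l4aos (1162 against 1095). Gas5 and Snhg15, at 4001 and 3010 bases, stayed within spans of 4118 and 3170. The authors' gene models for these 8 hosts thus held sequence beyond the exons of that release. Positions given here are those of GENCODE M21 and may be shorter than the regions counted. Introns and snoRNAs may lie in the counted regions, so these values are not shown to be those of spliced exons alone. The order of RPKM and the spans of 34.8 and 51.9 times depend on these lengths. By reads with the vehicle, Gas5 had 6946 over a length of 4001 bases, and Snhg8 had 2666 over 860.

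**Figure D1:**
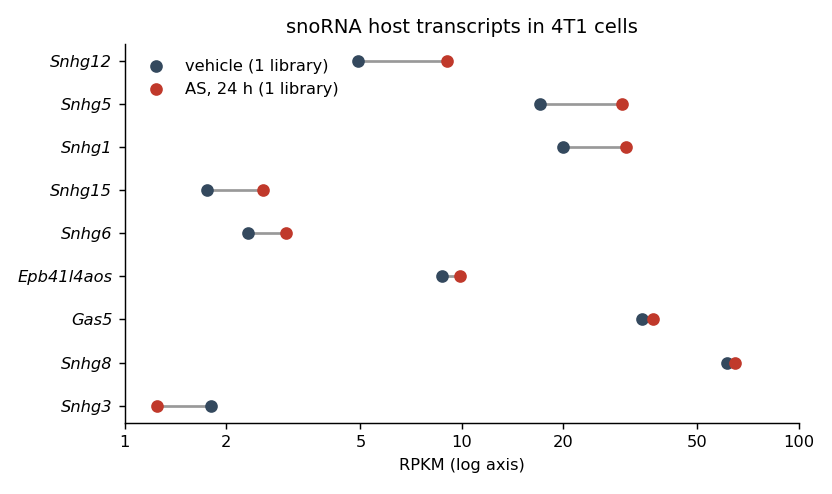
RPKM of the 9 host transcripts (log axis) in the 1 AS library and the 1 vehicle library of 4T1 cells, joined by a grey line per gene and ordered by fold change. The AS point lies to the right of the vehicle point for 8 genes and to the left for Snhg3.

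Among the 4 hosts of mainly box C/D snoRNAs, Snhg5 had the largest difference. Snhg5, which holds Snord50a and Snord50b, is annotated at chr9:88521050-88522929, minus strand. Its RPKM was 29.9 in the AS library against 17.1 in the vehicle library (4887 and 3159 reads). This was a log2 fold change of 0.80, with an interval from 0.74 to 0.87, and 1.54% of all genes had a larger one. Snhg1, the host of Snord22 and 7 further entries, is annotated at chr19:8723475-8726443, plus strand. Its RPKM was 30.8 in the AS library against 19.9 in the vehicle library (4164 and 3045 reads), which gave a log2 fold change of 0.63 with an interval from 0.56 to 0.70. The intervals of Snhg5 and Snhg1 did not overlap.

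Snhg6 and Gas5, the other hosts of mainly box C/D snoRNAs, differed less. Snhg6, which holds Snord87 (chr1:9941959-9944118, minus strand), had an RPKM of 3.01 in AS-treated cells against 2.32 in the vehicle library. Its 570 and 497 reads gave a log2 fold change of 0.36, with an interval from 0.20 to 0.55. Gas5, a growth arrest-specific transcript long used as an example of a host kept low by decay, is annotated at chr1:161034422-161038539, plus strand. Its RPKM was 36.8 in AS-treated cells against 34.2 in the vehicle library. With 6612 and 6946 reads it was the most deeply counted host, and its log2 fold change of 0.11 had an interval from 0.058 to 0.16. This interval includes the median of all genes, and 43.1% of all genes had a larger fold change than Gas5.

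Snhg12, the host of both classes, had the largest fold change of the 9. It is annotated at chr4:132308623-132311024, plus strand. The RPKM was 9.03 in the AS library against 4.91 in the vehicle library (1148 and 706 reads). This was a log2 fold change of 0.87, with an interval from 0.74 to 1.02 that overlapped that of Snhg5, and 1.14% of all genes had a larger one.

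The hosts with H/ACA entries only had log2 fold changes from -0.50 to 0.53. Snhg15, the host of Snora9 (chr11:6525591-6528760, minus strand), had an RPKM of 2.57 in AS-treated cells against 1.75 in the vehicle library. Its log2 fold change was 0.53, and 347 and 268 reads left a wide interval from 0.32 to 0.79. This interval overlapped those of Snhg12, Snhg5, Snhg1, Snhg6 and Epb41l4aos. Epb41l4aos (chr18:33794892-33795986, plus strand) had exactly 514 reads in both libraries. The smaller AS library made this an RPKM of 9.85 in AS-treated cells against 8.70 in the vehicle library, a log2 fold change of 0.18 with an interval from -0.00081 to 0.36. Snhg8, the host of Snora24 (chr3:123507552-123508404, minus strand), had an RPKM of 64.5 in the AS library against 61.0 in the vehicle library (2490 and 2666 reads). Its log2 fold change was 0.08, with an interval from 0.00048 to 0.16.

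Snhg3 alone was lower with AS. Snhg3, the host of Snora73a and Snora73b (chr4:132348014-132353686, minus strand), had an RPKM of 1.24 in AS-treated cells against 1.80 in the vehicle library. Only 55 and 90 reads stood behind these values. The log2 fold change was -0.50, and the interval ran from -1.04 to -0.032. In the annotation 2 further genes share this locus. The start of Rcc1, the gene of a chromatin-bound exchange factor for Ran, lies 81 bases away on the same strand, and Rcc1 had an RPKM of 5.43 in AS-treated cells against 5.07 in the vehicle library. The start of Gm17300 lies 1914 bases from that of Snhg3, on the other strand. The RPKM of Gm17300 was 0.802 in the AS library against 1.29 in the vehicle library (55 and 100 reads). The kit keeps strand, but the strand setting of the count is not given in the sources used here. Reads of Snhg3 and of Gm17300 may therefore not be fully separated where the genes overlap. Rcc1 is on the same strand as Snhg3, so no strand setting would separate their reads in shared sequence.

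The study states fold cutoffs at log2 values of 0.585 and 1, each beside a significance cutoff that was not applied here. Beyond a log2 fold change of 1, 0 of the 9 hosts were called. Over all genes, 0.662% were higher and 0.31% lower by that much. At a fold of 1.5, the lower of these cutoffs, Snhg12, Snhg5 and Snhg1 were higher, 3 of 9 hosts, and 0 were lower. Of all genes, 3.56% were higher and 2.01% lower by that much. The median log2 fold change of the 9 hosts was 0.36, against 0.07 over all genes, and 8 of 9 lay above that median. Only 5 of 9 had a counting interval wholly above it, a share not counted over all genes. The counting interval lay wholly above 0 for 7 hosts, as it did for 37.6% of all genes, and wholly below 0 for Snhg3, as it did for 19.8%. When all fold changes were centred on the median of all genes, Snhg1 was at 0.56 and no longer passed a fold of 1.5, and none of the 9 directions changed. Together the 9 hosts took up 20787 reads in the AS library and 17891 in the other, a log2 ratio of 0.39 once scaled to library size. The share of Gas5 in their reads was 31.8% in AS-treated cells against 38.8% in the vehicle library, and that of Snhg1 and Snhg5 together was 43.5% and 34.7%.

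**Figure D2:**
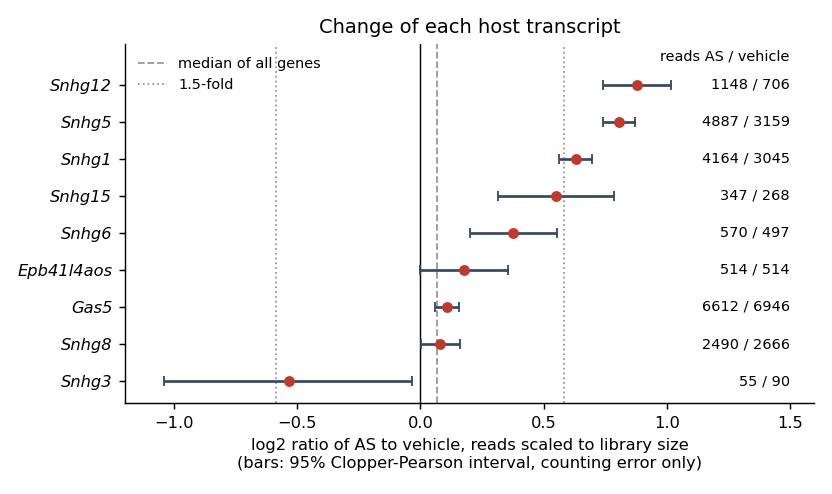
Log2 ratio of AS to vehicle for each host transcript, from reads scaled to library size, with 95% Clopper-Pearson intervals (counting error only) and the reads of both libraries at the right. Snhg12, Snhg5 and Snhg1 lie to the right of the dotted line for a fold of 1.5, Gas5 and Snhg8 sit at the dashed median of all genes, and Snhg3 lies left of 0.

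The sequence around the start of each host is given here because TOP tracts are read from the first bases of an RNA. RefSeq promoter entries (GRCm38.p6) were matched by symbol for 7 hosts, with 2 entries for Gas5, and not for Snhg6 and Epb41l4aos. Each line holds the 30 bases before and the 30 bases from the annotated start, 5′ to 3′ on the strand of the gene, and capitals mark the first C that is followed by at least 4 more C or T bases and lies within 10 bases of the start.
Snhg12 (chr4:132308648-132308707, plus strand): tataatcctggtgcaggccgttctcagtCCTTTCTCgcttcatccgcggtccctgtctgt
Snhg5 (chr9:88522868-88522927, minus strand): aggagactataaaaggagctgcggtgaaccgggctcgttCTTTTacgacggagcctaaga
Snhg1 (chr19:8723457-8723516, plus strand): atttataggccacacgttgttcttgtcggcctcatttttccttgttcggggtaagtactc
Snhg15 (chr11:6528731-6528790, minus strand): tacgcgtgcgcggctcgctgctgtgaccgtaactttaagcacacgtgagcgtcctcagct
Gas5, second start (chr1:161035136-161035195, plus strand): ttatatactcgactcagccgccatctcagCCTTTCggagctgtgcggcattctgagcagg
Gas5, first start (chr1:161034571-161034630, plus strand): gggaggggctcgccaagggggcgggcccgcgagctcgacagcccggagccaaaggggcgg
Snhg8 (chr3:123508307-123508366, minus strand): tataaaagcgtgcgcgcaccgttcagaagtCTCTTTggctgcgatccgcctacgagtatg
Snhg3 (chr4:132353657-132353716, minus strand): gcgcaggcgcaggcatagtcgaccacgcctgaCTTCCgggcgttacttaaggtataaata

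Such a tract was present at a start of 5 of the 7 hosts, and 30.7% of 32851 promoter entries held one, or 32.1% of those for genes of the table. It was present both in Snhg12 and Snhg5, with the largest fold changes, and in Gas5, Snhg8 and Snhg3, with the smallest. The rule is looser than a TOP tract, with which an RNA begins. In Snhg8 the run began exactly at the annotated start, but in Snhg5 it began 9 bases after it and in Snhg3 2 bases after it. A run that begins with T, such as that near the start of Snhg1, was not marked. Whether hosts with a TOP tract differ in fold change was therefore not tested. The cAMP response element (TGACGTCA, both strands) was found in the 300 bases of the promoter entries of Snhg15 and of the second start of Gas5, in 1.79% of all entries and in 3.06% of the 12391 entries for genes of the table. The E-box (CACGTG, both strands) was found in that of Snhg15, in 7.15% of all entries and in 9.77% of those for genes of the table. The element bound by ATF4 with C/EBP partners (TGATGNAA, both strands) was found in 0 of the 8 entries of these hosts, in 3.97% of all entries and in 2.12% of those for genes of the table.

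Reading frames were examined because decay of these hosts depends on translation. In GENCODE M21 the 9 hosts had 40 spliced transcripts of at least 2 exons, leaving out those annotated with a retained intron. In 32 of them (80.0%) the frame from the first ATG stopped more than 50 nucleotides before the last exon junction, the usual position for a decay signal, and in 72.4% of 14183 such transcripts of all long non-coding genes it did so as well. The median frame had 28.5 codons in the hosts. Gas5 had 5 of 5 transcripts with such a stop, after a frame of 23 codons in every one, and Snhg12, with the largest fold change, had 9 of 10 with a median frame of 54 codons. Snhg8 had 2 of 2, with a single codon before the stop, and Snhg3 had the lowest share with 2 of 5.

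Of the 31 snoRNA entries inside the hosts, 10 had a row of their own in the table. Their values are given beside those of the hosts, since host exons and intronic snoRNAs come from the same primary transcript. The sequences given here are those of GENCODE M21 (GRCm38), 5′ to 3′. Capitals mark the letters TGATG of box C within the first bases and CTGA of box D near the end, or the ACA box of Snora61. Snord22 held no TGATG there, so only its box D letters are in capitals.
Gm22357 in Gas5 (chr1:161036057-161036139, plus strand): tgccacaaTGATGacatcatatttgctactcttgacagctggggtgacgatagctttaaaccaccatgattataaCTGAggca
Snord78 in Gas5 (chr1:161036984-161037049, plus strand): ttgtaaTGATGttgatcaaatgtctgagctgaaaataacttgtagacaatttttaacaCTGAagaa
Snord22 in Snhg1 (chr19:8725866-8725991, plus strand): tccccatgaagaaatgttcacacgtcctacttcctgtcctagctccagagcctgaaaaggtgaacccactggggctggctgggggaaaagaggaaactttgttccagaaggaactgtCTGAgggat
Snora61 in Snhg12 (chr4:132310240-132310369, plus strand): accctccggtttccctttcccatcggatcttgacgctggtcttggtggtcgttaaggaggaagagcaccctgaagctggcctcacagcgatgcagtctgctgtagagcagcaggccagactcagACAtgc

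The snoRNAs inside Gas5, Snhg1 and Snhg12 were lower relative to their hosts. All 10 had a lower log2 fold change than their host, 3 were above 0 and 7 below, and their median was -0.19. Most genes of the table also lay below Snhg1 and Snhg12. Only 2.96% of all genes had a larger fold change than Snhg1 and 1.14% a larger one than Snhg12, against 43.1% for Gas5. Snord22 had an RPKM of 51.2 in AS-treated cells against 62.2 in the vehicle library, a log2 fold change of -0.28, whereas its host Snhg1 was at 0.63. The other Snhg1 entries were Gm25894 at 0.23, Gm22680 at 0.07 and Gm24452 at -0.41. Snora61 had an RPKM of 8.39 and 8.93, with 49 and 59 reads behind them, and its log2 fold change of -0.09 compares with 0.87 for Snhg12. In Gas5, Gm22357 was at 0.07, with 588 and 632 reads, Snord78 at -0.10, Gm22489 at -0.30, Gm23212 at -0.56 and Gm26224 at -0.59.

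For 7 of the 10 snoRNAs the counting interval lay wholly below that of the host, a share not counted over all genes. The other 3 were Gm22357 and Snord78 in Gas5 and Gm25894 in Snhg1. All 10 also lie over an exon of at least 1 annotated host transcript, so a read on a snoRNA can belong to an unspliced host, and how such reads were assigned is not given in the sources used here. Mature snoRNAs lack the poly(A) tail that mRNA kits generally select for. The 27 snoRNAs of the table outside the 9 hosts had a median log2 fold change of -0.20, with 11 higher and 16 lower. RNAs without a poly(A) tail also differed between the libraries. Of 11 such structured RNAs 3 had rows, and Rn7s1, a copy of the signal recognition particle RNA, had 10 reads in AS-treated cells against 376 in the vehicle library. Rn7s2 had 16 and 68 reads, and Rpph1, the RNA of ribonuclease P, had 2 and 154 reads, a log2 ratio with an interval from -9.15 to -4.21. The part of this difference between the libraries in the snoRNA values was not tested.

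**Figure D3:**
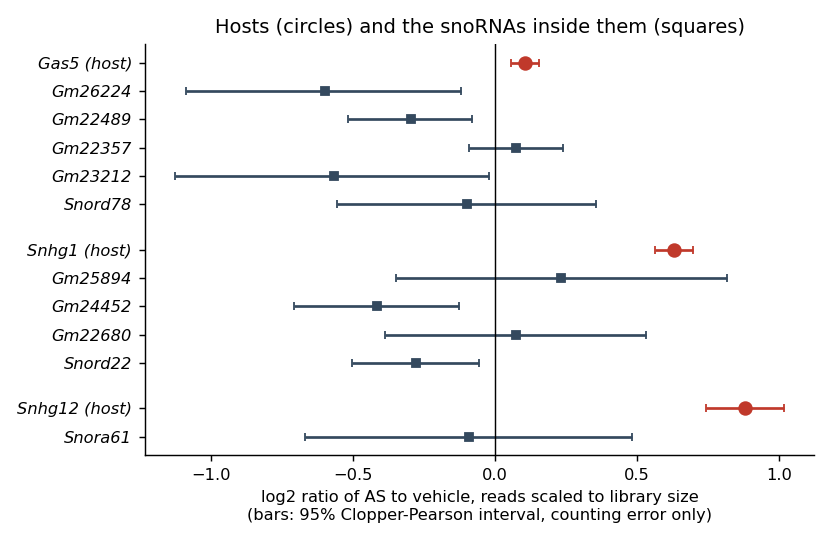
Log2 ratio of AS to vehicle for Gas5, Snhg1 and Snhg12 (red circles) and for the 10 snoRNAs inside them that had a row of their own (dark squares), with 95% Clopper-Pearson intervals of the reads (counting error only). Every square lies to the left of the circle of its host, and the intervals do not overlap for 7 of the 10. This share was not counted over all genes, most of which also had lower fold changes than Snhg1 and Snhg12.

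Snhg1 shares its promoter region with a gene that changed far more. The annotated start of Slc3a2, the heavy chain of several amino acid exchangers, lies 106 bases from that of Snhg1 on the opposite strand. Slc3a2 had an RPKM of 99.6 in the AS library against 36.8 in the vehicle library (15792 and 6603 reads), which gave a log2 fold change of 1.43 with an interval from 1.39 to 1.48. Snhg1, at 0.63, moved in the same direction by less. The start of Zbtb37, a zinc finger gene, lies 427 bases from that of Gas5 on the opposite strand, and its levels of 0.605 and 0.550 RPKM differed by 0.12 on the log2 scale, close to the 0.11 of Gas5. Apart from Rcc1 and Gm17300 at Snhg3, and leaving aside the snoRNAs inside the hosts, no other gene with a row had its start within 5 kb of a host. 

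Other snoRNA hosts differed by list. Of 12 further non-coding hosts, 9 had a row, 6 were higher and 3 lower, and the median log2 fold change was 0.09. Over all genes, 60.9% were higher. Dancr alone passed a fold of 1.5, with an RPKM of 0.488 and 0.265 and only 52 and 32 reads. Snhg4, at 46.6 and 45.1 RPKM, and Zfas1, with 1480 and 1340 reads, were the highest of them, with log2 fold changes of 0.05 and 0.32. The 31 protein-coding hosts, many of them genes of ribosomal proteins with TOP tracts, had a median of -0.05, with 9 higher, 22 lower and 0 past a fold of 1.5. Rpl23a, at 2371 RPKM in AS-treated cells against 2481 in the vehicle library, and Rpl5, at 1283 and 1336 RPKM, had log2 fold changes of -0.07 and -0.06. Over all genes of the table whose span holds a snoRNA entry on the same strand, the 9 hosts left out, the median was 0.06 for 207 protein-coding genes and 0.43 for 15 genes of other types, of which 3 were higher and 1 was lower by more than 1.5 times. By more than 1.5 times, 3.56% of all genes were higher and 2.01% lower. The lists overlap. Dancr is also among these 15 genes, as is Cct6a of the 31 protein-coding hosts, and Ncl of the 31 is among the 207. These lists are described by their counts only, and their difference from the 9 hosts has no test.

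The decay machinery itself moved little. Of 13 nonsense-mediated decay factors 12 were higher and 1 was lower, with a median log2 fold change of 0.18 and 0 past a fold of 1.5. The share of all genes that were higher was 60.9%, and their median was 0.07. Upf3a had an RPKM of 59.6 in AS-treated cells against 49.7 in the vehicle library, a log2 fold change of 0.26. Pnrc2, a decapping adaptor, had 46.6 and 37.6, a log2 fold change of 0.31. The transcripts of 4 factors are also on the list of decay targets, and of these Upf2, Smg1 and Smg5 were at 0.33, 0.35 and 0.30 and Upf1, the central helicase, at 0.06. The 7 genes of the exon junction complex had a median of -0.03, and Rbm8a and Magoh, the highest by their mean over both libraries, were at -0.11 and -0.21. Rnps1, the highest in the AS library, was at 0.07.

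Protein-coding transcripts that are described as decay targets included larger single differences, while their median was close to that of the 9 hosts. Of 15 such genes 13 were higher and 2 lower, with a median log2 fold change of 0.33, and 6 were higher by more than 1.5 times. Over all genes these shares were 60.9% higher and 3.56% higher by more than 1.5 times. The largest were those of Trib3 (2.10), Ddit3 (1.68), Atf3 (1.08) and Ern1 (1.06), and Atf4, the highest in level, had 123 RPKM in AS-treated cells against 75.5 in the vehicle library, a log2 fold change of 0.70. These genes also belong to the response to endoplasmic reticulum or amino acid stress, and the part of that response in their values was not tested.

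The snoRNA-binding proteins and the regulators of TOP messages gave a mixed picture. The 8 core proteins of snoRNPs had a median log2 fold change of -0.02, with 4 higher and 4 lower and 0 past a fold of 1.5. Nop56, a box C/D protein whose own gene hosts snoRNAs, had an RPKM of 51.8 and 53.5, and Nhp2, an H/ACA protein, had 51.5 and 54.1. Of 13 regulators of TOP messages 11 were higher, where 60.9% of all genes were, with a median of 0.14. Eif4ebp1, a repressor of cap-dependent translation, had 110 RPKM in AS-treated cells against 68.3 in the vehicle library (0.69), and Sesn2, an inhibitor of mTORC1 signalling, had 418 reads in AS-treated cells against 274 in the vehicle library (0.75). Ddit4, also an inhibitor of mTORC1, went the other way, with 42.9 RPKM in AS-treated cells against 53.6 in the vehicle library.

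Long non-coding RNAs that host no snoRNA did not move as 1 group. Of 10 on the list 9 had a row, with a median log2 fold change of 0.13, and 1 was higher and 2 were lower by more than 1.5 times. Over all genes, 3.56% were higher and 2.01% lower by that much. Pvt1 was higher, with 2.39 and 1.46 RPKM (0.68). Malat1, a nuclear RNA without a poly(A) tail, was lower, with 101 and 166 RPKM (-0.72), and H19, an imprinted RNA, had 2.01 and 4.67 RPKM (-1.17). Neat1, the scaffold of paraspeckles, had 104 and 95.5 RPKM (0.13).

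**Figure D4:**
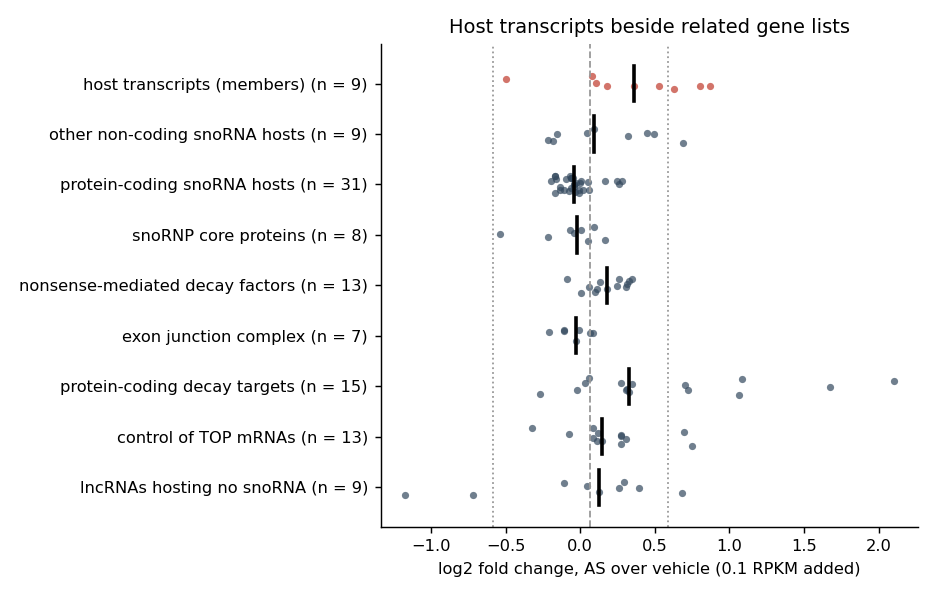
Log2 fold change of AS over vehicle (0.1 RPKM added) for each gene of the host transcripts (red) and of 8 related lists (dark), with the median of each list as a black bar. The dashed line is the median of all genes and the dotted lines are folds of 1.5. The median of the host transcripts lies at 0.36 and that of the protein-coding hosts at -0.05.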

How the data were processed

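RNA-seq of 4T1 cells gave 1 library per condition. Per the labels, the processing notes name fastp 0.23.4, STAR 2.5.3a, featureCounts and, for these mouse cells, GRCh38, while the symbols are those of mouse genes; the annotation and the filter on low genes are not given in the sources used here. The authors deposited RPKM per library and a pooled log2 mean CPM. Their fold change, p-value and FDR columns, 3 in all, were not used. Library sizes were found from the whole-number steps of RPKM times GENCODE M21 exon length, which was equal to the implied length for 94.2% of 13502 genes. Reads followed from the RPKM ratio and the pooled log2 CPM (prior of 2 reads, dispersion of 0.05), and this was tested on simulated data. No gene was at 0. With 1 library per condition only fold thresholds were applied, and no test was run. Members and lists were chosen with earlier results of these data known. Named are all members, neighbours within 5 kb and, per list, up to 4 genes past a fold of 1.5 in each direction and the 2 highest by mean RPKM; Upf1, Upf2, Smg1, Smg5, Nop10, Rnps1 and the snoRNAs were added after their values were seen. Alternatives were 0 or 1 RPKM added, median, TMM and upper-quartile scaling, and a minimum mean of 1 RPKM. Python 3.11.15, scipy 1.17.1 and matplotlib 3.10.9 were used.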

Additional observations from a re-analysis of the deposited data

How the results depend on the processing

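The median of the 9 hosts (0.36) and their counts past each fold kept their direction under the alternatives run, and the median ranged from 0.27 with 1 RPKM added to 0.38 with nothing added. Median, TMM and upper-quartile scaling lowered all fold changes by 0.07, 0.07 and 0.05 and left 2 hosts past a fold of 1.5. TMM changed the share of all genes higher by more than 1.5 times from 3.56% to 2.68% and of those lower from 2.01% to 2.87%. Under median, TMM and upper-quartile scaling, in this order, the list medians were -0.11, -0.11 and -0.10 for protein-coding hosts, 0.26, 0.26 and 0.27 for decay targets, -0.085, -0.088 and -0.074 for snoRNP proteins (with 1 gene, Nop10, lower by more than 1.5 times in each), and 0.062, 0.060 and 0.073 for long non-coding RNAs without snoRNAs, the latter 0.19 at a minimum mean of 1 RPKM. With 1 RPKM added, other non-coding hosts had 0 genes past a fold of 1.5 (0 also at the minimum mean), decay targets had 2 past a fold of 2, TOP regulators had 1 past 1.5, long non-coding RNAs had 0 higher past 1.5 and 0 lower past 2, and the median of structured RNAs was -3.20. The first group of changes is the shift of all genes, the second the amount added to low values, and the value at the minimum mean rests on fewer genes. No paired analysis was possible because each condition has 1 library. Depth limits Snhg3, with 55 and 90 reads, and the snoRNAs, with 104 to 1220 reads over both libraries; the spread between dishes could not be measured.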
